A study of Rattus norvegicus with 15 samples.

Results

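Blood DNA methylation under Luo-tong formula (LTF), a Chinese herbal formula, was set against that under calcium dobesilate (CaD), a drug given to protect small vessels in diabetic retinopathy (DR). The comparison uses the 3 arrays titled as LTF treatment and the 3 titled as CaD treatment, 6 of the 15 arrays of the series, chosen by title alone. Every rat was a male Sprague Dawley animal whose peripheral blood was taken at 20 weeks of age. The labels also record a starting age of 8 weeks, a glucose threshold of 13.9 mmol/l and a 12 h fast. Both groups had been made diabetic with streptozotocin at 45 mg/kg, given intravenously. CaD rats received 0.25 g/kg of the drug per day by gavage, and LTF rats received 2 g/kg of the formula per day, counted as herb weight. Both also received 1.5 IU of insulin per day, so that insulin, diabetes, strain and age are shared and the gavaged agent is the difference stated in the labels. The remaining 9 arrays came from 3 controls without streptozotocin, 3 DR model rats given distilled water, and 3 DR model rats given another Chinese formula. The DR model and other-formula rats had streptozotocin at 45 mg/kg as well, and the labels record no insulin for them and no dose of the other formula. These 9 arrays entered the fits for their spread between animals. Each array holds DNA of 1 rat, and the labels place 10 rats in each of the CaD and LTF groups, so the arrays cover part of each group.

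DNA methylation is the addition of a methyl group to cytosine, in mammals mostly where cytosine precedes guanine. Dense methylation at a promoter usually goes with a silent gene, while active promoters rich in such sites are mostly free of it. In methylated DNA immunoprecipitation (MeDIP), an antibody to methylcytosine pulls methylated fragments out of sheared DNA, and a tiling array compares them with the untreated input DNA. Here MeDIP DNA carried Cy5 and input DNA Cy3, and the value of a probe is log2 of MeDIP over input, so a higher value stands for more antibody-bound DNA at that position. The value rises with the number of methylated sites as well as with the share of cells that carry them. Peripheral blood is a mixture of leukocyte types with different methylation patterns, so a shift in cell makeup and a change within cells cannot be told apart. The files pair no probe with a gene, so regions are given by their position in the rn4 assembly of the rat genome, and marker genes of blood cells and gene lists were not analysed here.

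Each array measured 172669 probes, of which 86.6% to 90.0% were well above background in the MeDIP channel and 91.9% to 95.2% in the input channel on the 6 LTF and CaD arrays. Probes were joined wherever the gap to the next was 500 bp or less, which gave 16784 stretches of at least 3 probes. The 16782 with an unmarked spot on every array are called regions here. A region held a median of 10 probes over 1655 bp. The 3 LTF arrays were scanned together on a day of their own, while CaD replicates 1 and 2 shared a scan with a DR model array and CaD replicate 3 a scan with the other formula, so the LTF treatment and its scan cannot be told apart. The scanner software marked 7186, 10700 and 9620 spots as outliers on LTF replicates 1 to 3, against 1150, 701 and 3939 on CaD replicates 1 to 3. These marks gathered on probes with bright input: in the brightest of 10 equal bins of probes 21.6% of LTF spots and 4.94% of CaD spots were marked. They enter the comparison because a region's mean then runs over different probes in the LTF and CaD groups.

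The methylation profiles of LTF and CaD rats were close to each other. Over regions, measured on the same probes, pairs of an LTF and a CaD array correlated at 0.958 to 0.968, near the 0.962 to 0.971 among LTF arrays and the 0.969 to 0.976 among CaD arrays. With outlier spots left out array by array, 3 of 16782 regions passed an adjusted p of 0.05 in limma (0.0179% of regions tested), all with a lower log2 ratio under LTF and each at an adjusted p of 0.0472 in limma. When every probe marked on any array was instead left out of all arrays, a choice made after seeing the data, none of 16574 regions passed in limma (0% of regions tested), and the smallest adjusted p in limma was 0.585. The 3 calls were also lost, in limma, without any 1 of the 6 LTF and CaD arrays (846 to 1257 regions at an unadjusted p under 0.05) and with scan as a random block (380 regions). Other choices raised the count of calls in limma, to 30 with normexp background correction and to 21 without the DR model and control arrays, both with spots left out array by array. With the same probes both gave 0 calls in limma. At an unadjusted p under 0.05, 1281 regions were counted with spots left out array by array (7.63%) and 1086 with the same probes (6.55%), of which 194 were higher and 892 lower under LTF. After quantile normalization, which gives every array the same distribution, 4 regions passed in limma with spots left out array by array (0.0238% of regions tested) and none with the same probes, where 1321 regions had an unadjusted p under 0.05.

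The 3 regions that passed were chr1:82039053-82039420 with 3 probes, chr8:114794468-114796002 with 7 probes and chr13:87111682-87113374 with 10 probes. The region on chromosome 1 had values of 0.03, 0.09 and 0.08 in CaD replicates 1 to 3 and of -0.44, -0.32 and -0.38 in LTF replicates 1 to 3, a difference of -0.45 ± 0.07 (SE). All its LTF arrays lay below all its CaD arrays, but the middle probe was marked on all 3 LTF arrays and on no CaD array, and its ratio is the highest of the region, at 0.89 with LTF and 1.06 with CaD when all spots are kept. The other 2 probes differed by -0.09 and 0.10. Leaving out that probe in the LTF arrays alone therefore lowered the region's LTF mean, and the 2 probes left on every array are under the minimum of 3. On chromosome 8 the values were -0.17, -0.27 and -0.21 with CaD and -0.75, -0.68 and -0.80 with LTF, a difference of -0.53 ± 0.08 (SE). Its 2 marked probes had positive mean ratios in both groups and were missing from the LTF means only. On the 5 probes shared by all arrays the difference was -0.29 ± 0.11 (SE, adjusted p = 0.735 in limma), and it was -0.13 without the last probe of the region, at -0.93. On chromosome 13 the values were -0.48, -0.47 and -0.53 with CaD and -0.93, -0.98 and -1.17 with LTF, a difference of -0.53 ± 0.08 (SE). On its 8 shared probes the difference was -0.27 ± 0.10 (SE, adjusted p = 0.735 in limma), with the arrays still apart, and -0.16 without its largest probe, at -1.04, whose MeDIP signal was well above background on 0 of the 6 arrays. The next region by p, chr5:65225899-65227162, lay just outside the threshold at -0.57 ± 0.09 (SE, adjusted p = 0.0537 in limma) and kept more of its difference on shared probes, at -0.43 ± 0.10 (SE, adjusted p = 0.585 in limma). Without its largest probe, at -1.30, that region differed by -0.25, and this probe and the next largest, at -0.66, were well above background in the MeDIP channel on 0 of the 6 arrays.

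**Figure D1:**
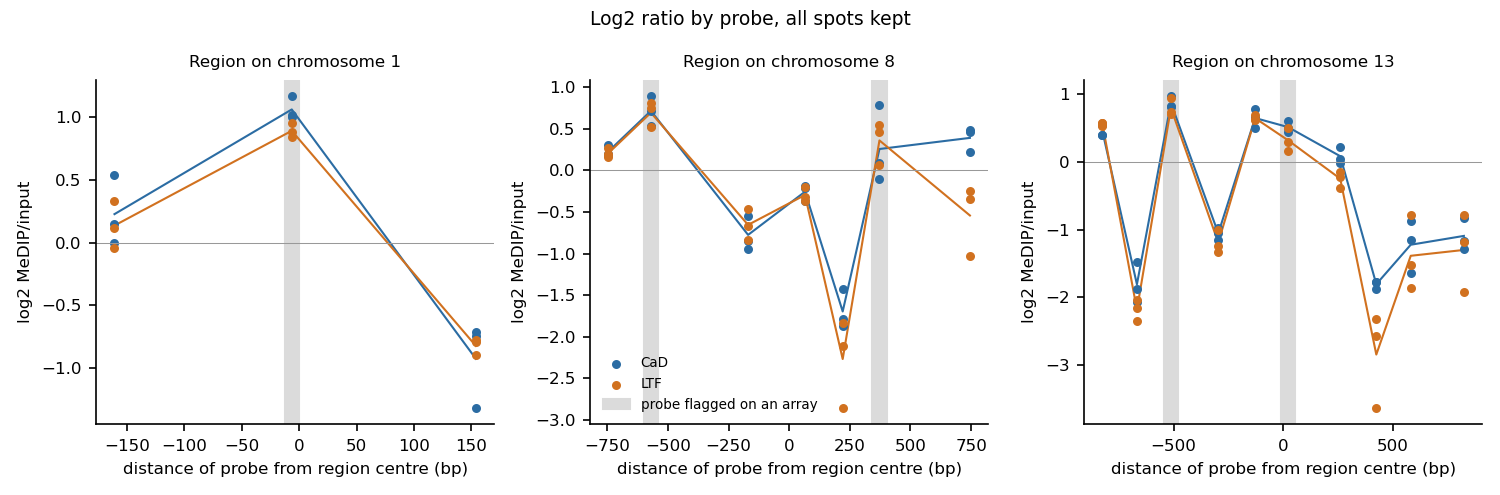
Log2 MeDIP/input of each probe (y axis) against its distance from the region's centre in bp (x axis), with all spots kept, for the 3 regions that passed when marked spots were left out array by array; points are arrays, lines are means of 3, and grey bands are probes marked as outliers on an array. The banded probes have high ratios in both groups, and the lines run close together at the probes beside them on chromosome 1.

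The number of marked spots moved with the comparison across the whole array. Of the 16782 regions tested, 10129 (60.4%) held at least 1 marked LTF spot and 4177 at least 1 marked CaD spot. On all 3 LTF arrays 2868 probes were marked, 1991 of them on no CaD array, while 39 probes were marked on all 3 CaD arrays. With spots left out array by array, the share of regions whose 3 LTF arrays all lay below the 3 CaD arrays was 12.8% over all regions, 9.97% where no LTF spot was marked, 18.1% where 3 were, 15.8% where 4 were, 25.6% where 5 were and 21.1% where 6 or more were. With the same probes on every array the share was 14.4% at 0 marked spots and 14.1% to 16.7% at 1 or more. Over all regions, LTF and CaD arrays did not overlap in 3159 of 16574 regions with the same probes (19.1% of regions tested), 710 higher (4.28%) and 2449 lower (14.8%) under LTF. The preponderance of lower regions, 77.5% of those without overlap, depended on the scaling, since after quantile normalization of the same probes it was 56.3%, with 1258 higher (7.59%) and 1622 lower (9.79%), 17.4% of regions in all.

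**Figure D2:**
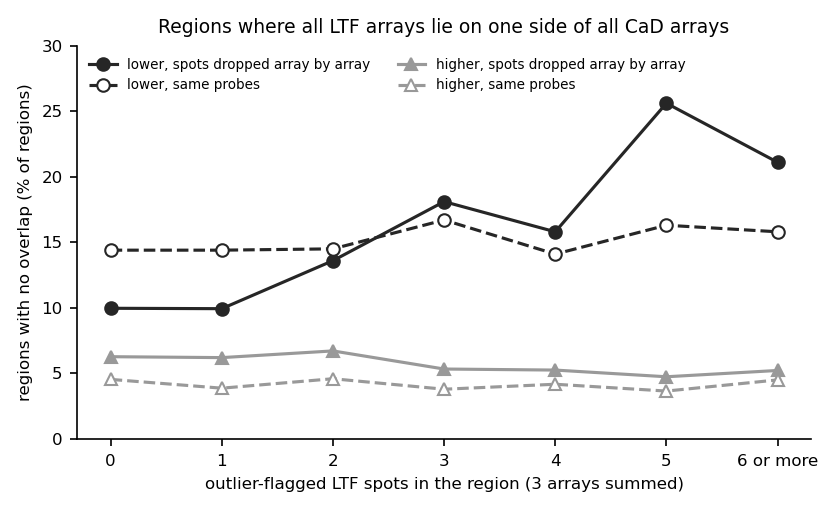
Percent of regions in which all 3 LTF arrays lay below (circles) or above (triangles) all 3 CaD arrays (y axis), by the number of marked LTF spots in the region (x axis); filled symbols leave marked spots out array by array and open symbols use the same probes on every array. The filled circles go from 9.97% at 0 spots to 25.6% at 5 spots and 21.1% at 6 or more, while the open circles stay between 14.1% and 16.7%.

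The intervals give a range for the difference between the LTF and CaD arrays, treatment and scan together. This fit has no term for scan, and the LTF arrays share a scan of their own. Variation between scans is therefore not fully held in the width of the intervals. The fit also pools the spread within all groups, which can differ from that of LTF and CaD alone. The interquartile range of the log2 ratio ran from 1.22 to 1.60 in DR model arrays and from 1.35 to 1.55 in controls. It was 1.20 to 1.30 with the other formula, 1.22 to 1.28 with CaD and 1.23 to 1.35 with LTF. What this pooling did to the width of the intervals was not tested. The 95% interval for LTF minus CaD, from limma with the same probes, reached a median of 0.19 on the log2 scale to either side of the estimate. In 96.2% of regions the interval lay within 0.5 of 0 on either side, and in 64.7% it lay within 0.3. The estimated differences themselves were small, with -0.20 and 0.13 as the 5 and 95 percentiles, and a size over 0.5 was seen in 14 regions. The median difference was -0.033, and -0.0056 after quantile normalization.

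The regions that led the list on shared probes were examined in more detail, since these values compare the same probes in both groups. They are the 12 higher and 12 lower regions with the smallest unadjusted p among those without overlap, chosen after their values were seen. None passed the adjusted threshold, with adjusted p between 0.585 and 0.653 in limma, so what follows describes these 6 rats. Among the 24, the sizes ran from 0.26 to 0.55 for higher regions and from -0.71 to -0.27 for lower ones.

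The lower regions differed at most of their probes. First by p was chr11:72340559-72342115, with 9 probes and no marked spot on any of the 6 arrays. Its values were -0.44, -0.32 and -0.43 in CaD replicates 1 to 3 and -0.87, -0.71 and -0.93 in LTF replicates 1 to 3. The 3 LTF arrays lay below every CaD array, and the difference was -0.44 ± 0.08 (SE, adjusted p = 0.585 in limma; 95% interval -0.61 to -0.26). Of its 9 probes 8 were lower under LTF, and without the probe of largest difference, at -0.95, the region differed by -0.37. The probes that differed most had the lowest ratios of the region, between -2.12 and -1.01 with CaD, whereas the 4 probes with positive CaD means differed by -0.23 to 0.11. The 4 probes that differed most were well above background in the MeDIP channel on at most 1 of the 6 arrays, and the 4 with positive means on all 6.

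Next came chr6:110850425-110852084, at 0.09, 0.07 and 0.05 with CaD and -0.25, -0.23 and -0.28 with LTF on 6 shared probes. The spread within each group was small, 0.07 ± 0.02 (SD, n = 3) with CaD and -0.25 ± 0.03 (SD, n = 3) with LTF, but a single probe at -1.10 carried much of the difference, which was -0.17 without it. At chr13:105965157-105966934 the CaD values were 0.19, 0.13 and 0.00 and the LTF values -0.21, -0.23 and -0.16, with 6 of 8 probes lower. The groups did not overlap, and the difference of -0.31 was -0.26 without its largest probe. At chr14:43516407-43518078 the CaD values were 0.40, 0.29 and 0.22 and the LTF values -0.04, -0.12 and -0.09. Here all 9 shared probes were lower under LTF, with differences of -0.94 to -0.06, and the largest 3 belonged to neighbouring probes around the centre, at -0.49, -0.80 and -0.94. Those 3 probes were dim, with a MeDIP signal well above background on 4, 0 and 4 of the 6 arrays, and the part of dimness in the result was not tested.

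In the region chr1:202936068-202937758, CaD replicates 1 and 2 were at -0.09 each and replicate 3 at -0.27, while LTF replicates were at -0.50, -0.57 and -0.53. Of 9 probes 8 were lower, and CaD replicate 3 lay nearer to the LTF arrays than the other CaD arrays did. A further region of that chromosome, chr1:167888296-167889119, had -0.04, -0.24 and -0.17 with CaD and -0.56, -0.60 and -0.53 with LTF on 5 probes. The size was largest at chr4:68168284-68169132, where only 3 of 6 probes were unmarked on all arrays. Its CaD values were -0.38, -0.54 and -0.63 and its LTF values -0.98, -1.46 and -1.25, a difference of -0.71 ± 0.15 (SE) with a wide interval of -1.03 to -0.39. Its probe of largest difference was well above background in the MeDIP channel on 0 of the 6 arrays, and without it the region differed by -0.57. The region with most probes, chr20:4997456-5001961, had 18 shared probes, 15 of them lower, at 0.01, -0.02 and -0.10 with CaD and -0.27, -0.35 and -0.30 with LTF. It is the member of this set with the smallest difference, -0.27. The other lower regions were chr20:3539173-3540672 at -0.34, chr17:66993773-66994128 at -0.43, chr19:35428740-35430267 at -0.29 and chr3:68832544-68834307 at -0.37. For all 12 lower regions the difference without the largest probe was still over 50% of the full difference.

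The higher regions rested more often on a single probe. First by p was chr5:83563411-83564528, where 8 LTF spots were marked and 3 of 6 probes were shared. Its CaD values were -0.31, -0.34 and -0.41 and its LTF values 0.04, -0.05 and 0.18, LTF minus CaD being 0.41 ± 0.09 (SE, adjusted p = 0.585 in limma). With spots left out array by array the same region differed by only 0.10, so the value depends on which probes enter it. At chr4:166924723-166925440, the largest of the higher regions, CaD arrays had -1.01, -1.21 and -1.17 and LTF arrays -0.82, -0.47 and -0.47, a difference of 0.55 ± 0.14 (SE). Its 4 shared probes were 2 higher and 2 lower, and without a probe at 2.03 the difference was 0.05. That probe was well above background in the MeDIP channel on 2 of the 6 arrays.

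At chr3:68657859-68659655 the CaD values were -0.44, -0.52 and -0.59 and the LTF values -0.15, -0.11 and -0.13. The arrays did not overlap, yet 4 of 7 shared probes were lower under LTF, and without a probe at 1.79 the difference of 0.38 was 0.15. At that probe the MeDIP signal was not well above background on any of the 6 arrays, and the input signal after background subtraction averaged 0.43 with LTF and 5.93 with CaD, so its ratio compares signals near 0. Likewise chr6:127645003-127646707 differed by 0.35 with a probe at 2.21 and by 0.11 without it, and it changed sign to -0.06 when dim probes were left out. The region chr1:142339755-142341352 had no marked spot, with -0.79, -0.60 and -0.59 in CaD arrays and -0.30, -0.40 and -0.30 in LTF arrays. Of its 8 probes 6 were higher, at a difference of 0.33 that was 0.17 without a probe at 1.46.

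An even difference was seen at chr2:243745863-243746552, where all 5 probes were higher under LTF, by 0.25 to 0.49. In the MeDIP channel 3 of them were well above background on all 6 arrays and 2 on 1 array. Its CaD values were -0.22, 0.01 and 0.10 and its LTF values 0.23, 0.25 and 0.44. CaD replicate 1 lay below the other CaD arrays, and the smallest gap between the groups was between CaD replicate 3 and LTF replicate 1. At chr20:3706781-3708470, CaD arrays were at 0.35, 0.15 and 0.23 and LTF arrays at 0.50, 0.53 and 0.52, with 6 of 7 probes higher. Its largest probe, at 0.74, was well above background in the MeDIP channel on all 6 arrays, the only leading higher region of which that held. The others were chr6:95547749-95549192 at 0.28, chr19:531017-532678 at 0.26, chr8:48067551-48069215 at 0.32, chr16:17547298-17549058 at 0.32 and chr9:19373536-19374296 at 0.38. In 6 of the 12 higher regions the difference was under 50% of its size without the largest probe. The same count over all regions without overlap was 350 of 710 higher regions (49.3%) and 669 of 2449 lower regions (27.3%).

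**Figure D3:**
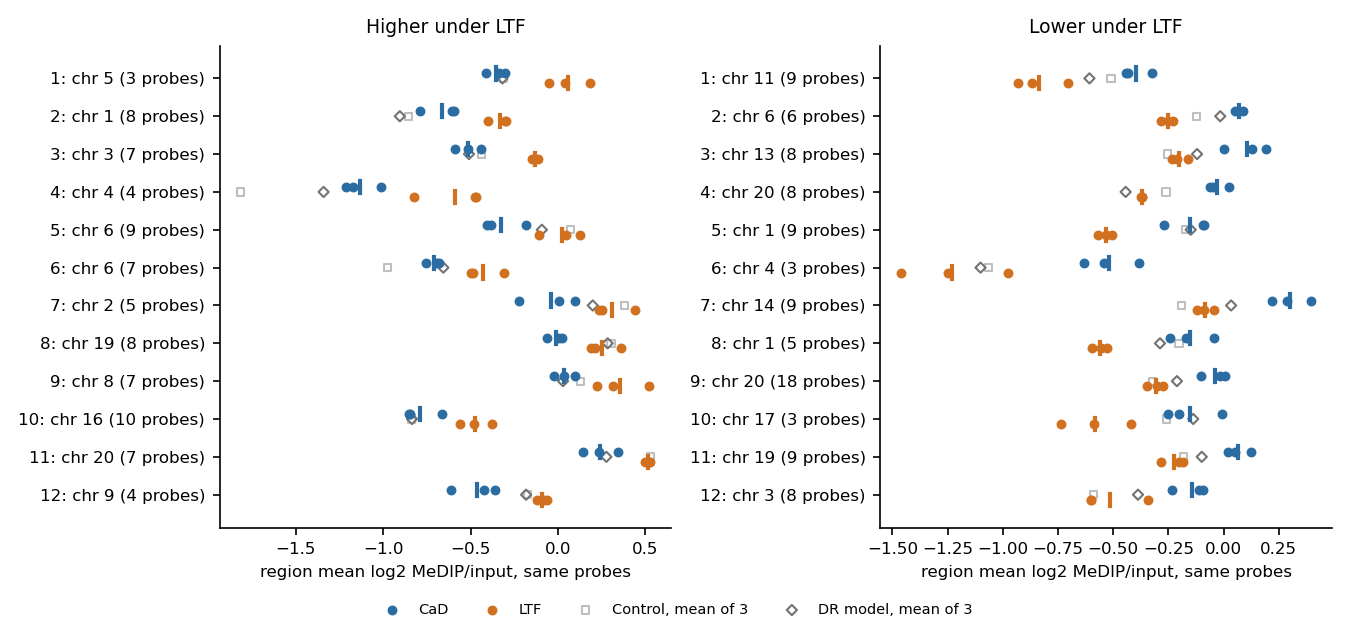
Mean log2 MeDIP/input over shared probes (x axis) in the 12 higher (left) and 12 lower (right) regions with the smallest unadjusted p, ordered by p from the top (y axis, chromosome and number of shared probes); dots are arrays, bars are means of 3, and open symbols are means of the 3 control and 3 DR model arrays. The LTF and CaD dots do not overlap in any row because the rows were chosen so, and the gap is widest on chromosome 4 on both sides, at 0.55 and -0.71.

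**Figure D4:**
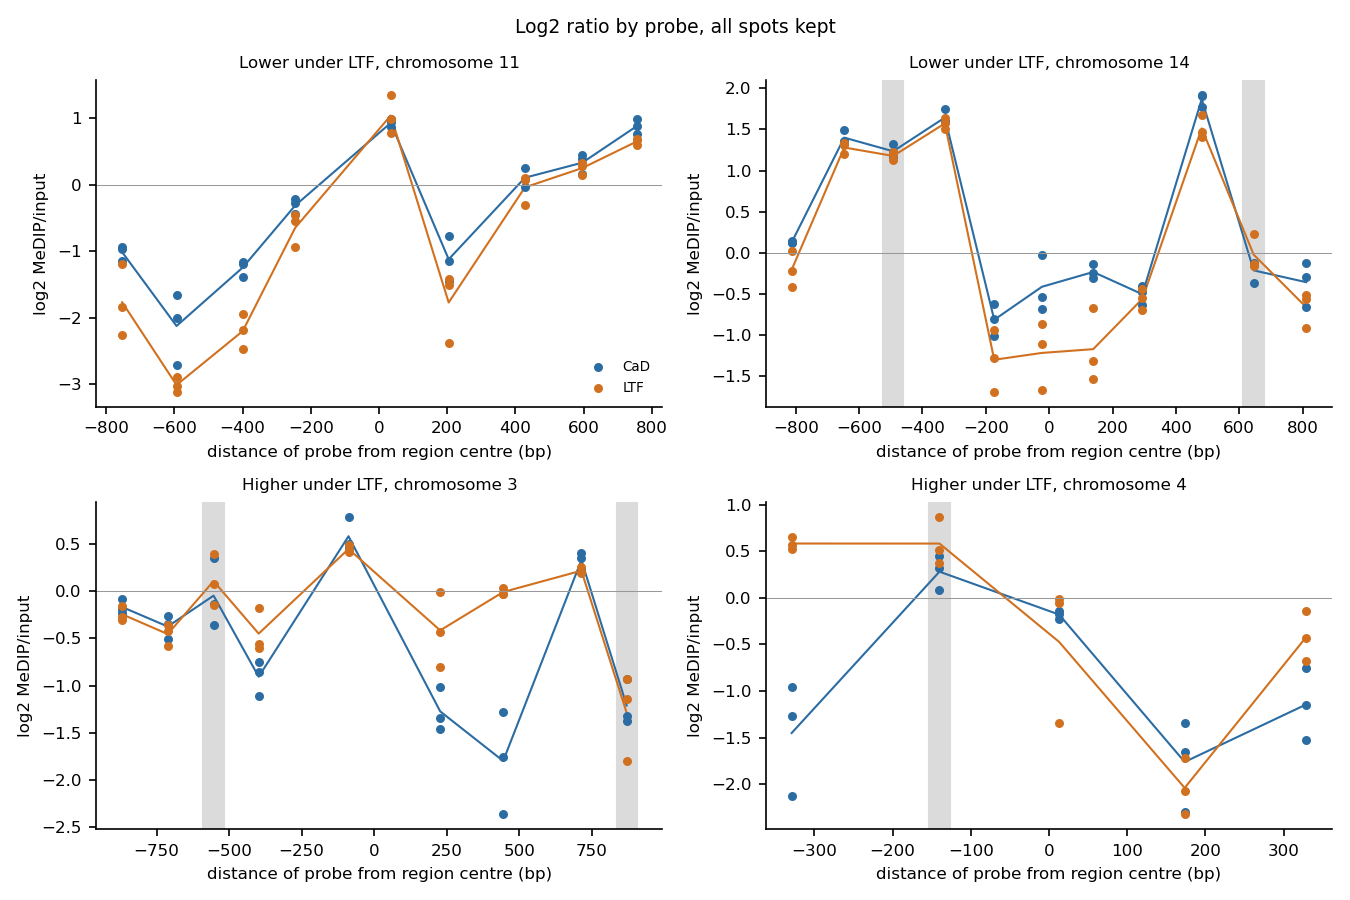
Log2 MeDIP/input of each probe (y axis) against its distance from the region's centre in bp (x axis) in 2 lower (top) and 2 higher (bottom) leading regions, all spots kept; points are arrays, lines are means of 3, and grey bands are probes marked as outliers on an array. On chromosome 14 the LTF line lies below the CaD line at all 9 unmarked probes, whereas on chromosome 4 a single probe at 2.03 holds most of the difference.

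The size of these differences moved with the signal setting, in alternatives chosen after seeing the data and run on the same probes. Why it moved was not tested. Restricted to probes well above background in both channels on all 6 arrays, 9 higher and 11 lower leading regions had enough probes. The difference was then under 50% of its size in 6 of those 9 (66.7%) and 2 of those 11 (18.2%), against 35.2% of all higher and 27.1% of all lower regions without overlap that had enough probes. The region first among the lower ones, chr11:72340559-72342115, was at -0.08 on such probes, and chr3:68657859-68659655 at 0.02 and chr1:142339755-142341352 at 0.06. Others held more of their size: chr2:243745863-243746552 was at 0.33, chr6:110850425-110852084 at -0.31, chr3:68832544-68834307 at -0.36 and chr17:66993773-66994128 at -0.42.

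Normexp adds an offset of 50 to each signal, which compresses the ratios. On the LTF and CaD arrays the median background-subtracted MeDIP signal was 48.3 to 60.8. The median input signal was 46.6 to 61.1. The offset is thus near the signal of an ordinary probe, and the compression is not confined to dim probes. Its part in the smaller sizes was not tested. With normexp the difference was under 50% of its size in all 12 higher and 9 of the 12 lower leading regions. The same held for 97.7% of all higher and 54.4% of all lower regions without overlap. In the authors' deposited table the counts were 4 higher (33.3%) and 8 lower (66.7%), against 27.6% and 68.1%. After quantile normalization none of the 24 was under 50%. The regions least moved by these settings were chr3:68832544-68834307, between -0.37 and -0.26, and chr20:4997456-5001961, between -0.25 and -0.19.

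Pairs of leading regions of opposite sign lay near each other on 2 chromosomes. On chromosome 3 the starts of a higher region at 68657859 and a lower region at 68832544 were 174685 bp apart, and on chromosome 20 those of a higher region at 3706781 and a lower region at 3539173 were 167608 bp apart. The lower region at 4997456 is also on chromosome 20. The lower region chr3:68832544-68834307 had -0.09, -0.11 and -0.23 with CaD and -0.60, -0.34 and -0.60 with LTF, and 7 of its 8 shared probes were lower. On chromosome 20 the lower member had 0.02, -0.05 and -0.06 with CaD and -0.37 in each LTF array, with 6 of 8 probes lower. These distances come from regions picked by their values and are given as positions only.

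Set among all 5 groups, the leading lower regions were mostly places where the CaD mean stood high. The CaD mean was the highest of the 5 group means in 10 of the 12 lower regions, and the LTF mean was the lowest in 7. At chr14:43516407-43518078, for example, the means were 0.30 with CaD, 0.26 with the other formula, 0.03 in the DR model, -0.08 with LTF and -0.19 in controls. At chr1:202936068-202937758 the order differed, since controls, DR model and CaD were between -0.17 and -0.15, the other formula was at -0.24 and LTF at -0.53. In the 12 higher regions LTF had the highest mean in 8 and CaD the lowest in 4. At chr2:243745863-243746552 the means were 0.38 in controls, 0.31 with LTF, 0.20 in the DR model, 0.10 with the other formula and -0.04 with CaD. The regions were chosen on LTF and CaD values, so an extreme place of either is partly fixed by that choice and is given as a description.

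The rule that named regions from the fit with spots left out array by array gave a second set of 12 higher and 12 lower regions, of which 9 were also in the set above. Marked LTF spots were present in 8 of its higher and 11 of its lower regions. On shared probes 2 of its lower regions had under 3 probes left, namely the region on chromosome 1 described above and chr7:7715305-7715897. The latter went from -0.66 with spots left out to 0.06 when all spots were kept. On shared probes the difference was under 50% of its size in 2 higher and 1 lower region, such as chr6:70681531-70683161, at 0.31 with spots left out array by array and 0.08 on 8 shared probes. Not every region of the set shrank: chr5:151143341-151145035, with 9 marked LTF spots, was at -0.56 and on 4 shared probes at -0.63. At chr8:46311347-46313080 the difference was 0.39 array by array and 0.29 on 5 shared probes, all of them higher. The regions chr16:67101296-67102923, chr10:36167361-36168046, chr7:49995383-49996941, chr11:70688448-70689172, chr1:82005624-82007298, chr3:75550424-75552066 and chr15:66390614-66392308 make up the rest of this set, at -0.44 to 0.35 array by array and at -0.19 to 0.27 on shared probes.

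Each channel was also tested by itself, each array centred on its median signal. The input channel, which holds no antibody step, differed between LTF and CaD in more regions than the MeDIP channel or the ratio. On shared probes 451 of 16574 regions passed an adjusted p of 0.05 in limma in the input channel (2.72% of regions tested), 366 higher (2.21%) and 85 lower (0.513%) under LTF. In the MeDIP channel 30 regions passed in limma (0.181% of regions tested), 27 of them higher (0.163%) and 3 lower (0.0181%). Without LTF replicate 1 these counts were 1 and 0, and over all 6 arrays left out in turn they ran from 1 to 494 and from 0 to 13 in limma. Without LTF replicate 2 they were 14 and 0, without CaD replicates 1 and 2 in turn 32 and 34 with 0 each, and without CaD replicate 3 they were 140 and 6. With scan as a random block neither channel had a called region on shared probes in limma, where 814 input and 331 MeDIP regions had an unadjusted p under 0.05. Across regions the MeDIP and input differences correlated at 0.787 over 16574 regions that share arrays, so regions with a higher signal under LTF in one channel mostly had a higher one in the other. The ratio difference correlated at 0.466 with the MeDIP difference and at -0.178 with the input difference.

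In the leading regions the MeDIP difference was the larger of the channels in 8 of the 12 higher and 9 of the 12 lower regions. These regions were chosen on the ratio, so the counts are a description. Over all regions the MeDIP difference also had the wider spread, at an SD of 0.165 against 0.148 for input. At chr11:72340559-72342115 the MeDIP channel differed by -0.52 and the input channel by -0.12, and at chr4:68168284-68169132 by -0.72 and -0.05. At chr3:68657859-68659655 the reverse held, with 0.02 in the MeDIP channel and -0.40 in the input channel. At chr20:4997456-5001961 both channels were higher under LTF, by 0.16 and 0.39, and the ratio was lower because input differed more. Input passed the threshold in limma in these last 2 of the 24 regions, with adjusted p of 0.00932 and 0.0164.

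**Figure D5:**
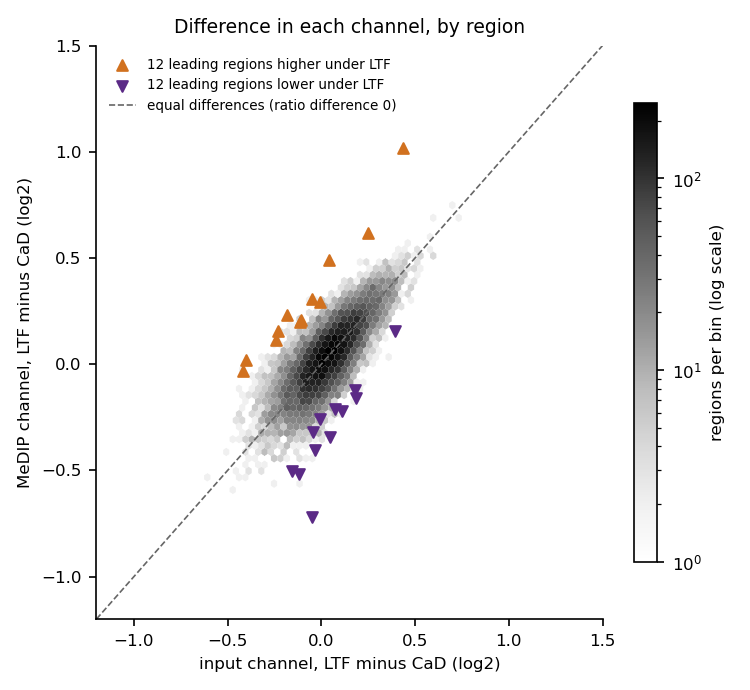
Difference between LTF and CaD in the MeDIP channel (y axis, log2) against that in the input channel (x axis, log2) for 16574 regions on shared probes; grey hexagons count regions on a log scale, triangles are the 24 leading regions, and the dashed line is where the ratio does not differ. The cloud follows the dashed line (correlation 0.787), and the leading regions lie off it on either side by construction.

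Across the autosomes the difference varied little by chromosome. On the same probes the median LTF minus CaD difference ranged from -0.044 to -0.025 over the 20 autosomes. It was -0.061 over the 98 regions labelled chromosome Un. On the X chromosome it was -0.0049, and 0.025 after quantile normalization. Of its 597 regions 39 were higher (6.53%) and 60 lower (10.1%) without overlap, against 4.28% and 14.8% of all regions. The difference moved with the mean log2 ratio of the region. With regions in 5 equal bins by mean ratio, the median ran from -0.062 in the bin of lowest ratio to -0.0090 in that of highest ratio. In those bins 17.0% and 9.56% of regions were lower without overlap. After quantile normalization the medians of those bins were 0.017 and 0.00017, so the order by ratio depended on the scaling. By input brightness the median went from -0.016 in the dimmest of 5 bins to -0.043 in the brightest. By mean probe length in 5 bins from short to long the medians were -0.026, -0.037, -0.045, -0.029 and -0.019, with no steady order. After quantile normalization the longest bin was at 0.066 and the shortest at -0.011.

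At the level of whole arrays the LTF and CaD values overlapped in all 5 measures compared. In exact two-sided permutation tests 3 arrays against 3 cannot go below p = 0.1, and p-values were adjusted over the 5 measures. The interquartile range of the log2 ratio, its spread over probes, was 1.23, 1.35 and 1.27 in LTF arrays and 1.22, 1.23 and 1.28 in CaD arrays (exact permutation p = 0.5, adjusted 0.625). The slope of each array's region values against their mean over the arrays measures its contrast between regions of high and low ratio. It was 0.92, 0.97 and 0.97 with LTF and 0.94, 0.87 and 0.95 with CaD (exact permutation p = 0.3, adjusted 0.625). The median of X chromosome regions minus that of all others was -0.12 ± 0.025 (SD, n = 3) with LTF and -0.14 ± 0.015 (SD, n = 3) with CaD (exact permutation p = 0.3, adjusted 0.625). Probes of 45 nucleotides averaged 0.28 with LTF and 0.30 with CaD (exact permutation p = 0.4, adjusted 0.625), and probes of 60 nucleotides -0.92 and -0.95 (exact permutation p = 0.7).

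Single probes were tested as well. Of 149550 probes unmarked on every array none passed an adjusted p of 0.05 in limma (0% of probes tested), the smallest being 0.119 in limma, while 10328 had an unadjusted p under 0.05 (6.91%). All 3 LTF arrays lay above all 3 CaD arrays at 12231 probes (8.18% of probes tested) and below them at 15505 (10.4%), or 18.5% in all.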

How the data were processed

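Per the labels, MeDIP DNA (Cy5) and input DNA (Cy3) of 1 rat were hybridised to each array. The deposited scanner files come from Feature Extraction 11.0.1.1 and use rn4 positions, per the file headers. They hold an intensity per spot and channel, background-subtracted and dye-normalised by the authors' software, and the authors' log10 ratio. Put on the log2 scale, that ratio lay within 0.001 of the log2 ratio of the processed signals for 99.3% to 99.9% of probes. The authors' deposited value table, taken here as log2, correlated with the scanner ratios at 0.846 to 0.886, with column medians of 0.0083 to 0.045. How that table was centred, which way its ratio runs and its log base stay unknown, and limma is named in the submitters' processing notes without a role.

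From these, log2 Cy5/Cy3 was computed for 172669 probes (6856 control spots left out), each array centred on its median, and outlier-marked spots dropped. Of 17668 runs of probes, 884 had under 3 and 2 more had no unmarked spot on some array. Region means were fitted in limma 3.58.1 (R 4.3.3) over all 15 arrays, with 1 mean per group, the contrast LTF minus CaD and Benjamini-Hochberg adjustment over regions. The same-probe fit left out 23119 probes, recentred the arrays and kept 16574 regions. Leading regions were the 12 each way with the smallest p among regions without overlap. The members and lists were chosen with earlier results of these data known. The region fit was tested on simulated data with independent errors. That simulation held no scan effect and no spots dropped array by array, so it does not bear on either. Per array the depth is set by signal over background, and the 3 arrays a group limit the precision. Alternatives are given in the closing section. Gene lists, cell markers and the authors' comparisons with other groups were not analysed here.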

Additional observations from a re-analysis of the deposited data

How the results depend on the processing

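The count of regions called between LTF and CaD in limma, 3, depended on the processing. It was 4 after quantile normalization and 2 with only the 6 LTF and CaD arrays, 30 with normexp (run on median spot signals), 21 without the DR model and control arrays, 1 with gaps of at most 250 bp, and 0 with the authors' table, with outlier spots kept, with dim probes left out, with centring within each probe length, with at least 5 probes, with single probes, with scan or scan day as a random block (block correlations 0.39 and 0.0968), with either set of CaD arrays scanned together, and with the same probes on every array. Leaving out each LTF or CaD array gave 0 to 0. The replicate block gave 0 over 15 arrays and 1 over 6 arrays. Deviations from the group means correlated at 0.0086, -0.044 and 0.13 in same-numbered arrays, and at -0.11 to 0.12 in arrays of unlike number. With 3 arrays a group these values do not settle whether the numbers pair the rats. With the same probes on every array the count was 0 under all 22 alternatives, with 209 to 2355 regions at an unadjusted p under 0.05 in the 21 that test regions and a smallest adjusted p of 0.0894 to 1 in limma.

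After quantile normalization the 4 called regions became 0 with the same probes, with outlier spots kept and with scan as a random block, 2 with the replicate block, and 0 to 5 without single arrays. Single probes had 5 calls after quantile normalization and 0 to 2 without single arrays. The input channel had 1110 called regions with spots left out array by array, 451 with the same probes, 7 with scan as a random block, 0 with both, and 275 to 1310 without single arrays; the MeDIP channel had 607, 30, 7, 0 and 98 to 717. With the same probes on every array, leaving out single arrays gave 1 to 494 input and 0 to 13 MeDIP regions. The slope difference of 0.037 was -0.011 after quantile normalization and -0.052 with normexp, and 0.014 to 0.055 without single arrays. The width difference of 0.038 was -0.092 with normexp and 0.0023 to 0.065 without single arrays. The X chromosome difference was 0.0092 to 0.034 without single arrays. The 45-nucleotide difference of -0.018 was -0.046 with normexp, 0.0075 in the authors' table and -0.034 to -0.0076 without single arrays, and the 60-nucleotide difference of 0.024 was 0.10 after quantile normalization and -0.0070 to 0.062 without single arrays. Most named regions had not passed the threshold, so their sizes say more than their calls. Of 382 values of the regions named by rule, 49 were under 50% of the reported size or opposite in sign, among them 20 of 24 with normexp, 10 in the authors' table, 8 with outlier spots kept and 7 without dim probes; chr7:7715305-7715897 turned to 0.060 with outlier spots kept, chr10:36167361-36168046 went from 0.33 to 0.013 and chr11:72340559-72342115 from -0.42 to -0.026 with normexp, and chr1:82039053-82039420 from -0.45 to -0.042 in the authors' table. Of 221 values of the other leading regions 23 were, 12 of them with normexp, 8 in the authors' table, 2 without dim probes and 1 with spots left out array by array, and chr6:127645003-127646707 turned to -0.057 without dim probes. The cause of these shifts was not tested. Scan 4 held the LTF arrays alone, so no fit separates scan from treatment, and dim probes, with signals near background, limit the ratios of several leading regions.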
